A study of Mus musculus with 8 samples.

Results

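The genes described here flank Tfap2a on mouse chromosome 13. They are the genes that start within 20 Mb of the rounded start of Tfap2a, before or after it on GRCm38, and that averaged at least 1 CPM, the read count scaled to a common library size, in at least 1 group. Tfap2a itself and 1 other gene were left out. Of the 37583 genes in the files, 593 were placed in this window by their Ensembl identifiers, and 212 met the rule. Of these members, 204 are annotated as protein coding, 87 start before Tfap2a and 125 start after it. The first member starts at 20794113 and the last at 60601947. Another 379 genes of the window stayed under 1 CPM in both groups. A gene's start here is its lower coordinate on either strand. Distances run from the start of Tfap2a and are negative before it. Tfap2a lies on the minus strand, so before it does not mean upstream of its transcription start. Just inside the limit lay Cks2, which averaged 1.01 CPM in libraries labelled knockout and 0.52 CPM in wildtype libraries. Just outside it lay 2610307P16Rik, with 0.993 CPM in libraries labelled knockout and 0.757 CPM in wildtype libraries.

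RNA of whole mouse kidneys was sequenced in 8 libraries. The 4 libraries labelled knockout carry the genotype Six2Cre+TFAP2Afl/flTFAP2Bfl/WT, that is, a Cre recombinase named for Six2, with Tfap2a floxed on both chromosomes and Tfap2b on 1. The other 4 came from control littermates given as WT, and their strain, age and sex were not found in the labels. Six2 is a gene of nephron progenitors, so a Cre under its control is known for acting in nephron epithelium, and whole kidney also holds vessels, stroma, immune cells and collecting ducts, which have other origins.

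A floxed allele carries short recognition sites round part of a gene and is usually built in embryonic stem cells. Mice that inherit such an allele also inherit the DNA on both sides of it, and the length of that stretch shrinks as crossovers accumulate over generations of breeding. Where the stem cells and the recipient strain differ, sequence variants in that stretch can alter the level of neighbouring genes, or how many of their reads align to a reference genome. The members were therefore compared between genotypes by their distance from Tfap2a. Whether the control littermates carried floxed alleles without Cre is not stated in the labels.

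Each library held 13871861 to 16629301 counts within genes, and a count of 0 allows at most 0.223 CPM in the smallest library, from a floor of 3 counts. The floor covers counting error alone, since PCR copies were not told apart from separate molecules. Separate animals per library are not stated, so a p-value reflects only how far these libraries spread. Some libraries stood apart in other tissues or states. The summed CPM of 4 adrenal markers was 785 in knockout replicate 2 and 776 in wildtype replicate 1, and 4.52 to 10.4 in the other 6 libraries. The sum of 3 heat-shock genes was 698 in knockout replicate 4 and 353 in knockout replicate 2, against 59.3 to 111 in wildtype libraries. Knockout replicate 1 had 6158 CPM in 3 red cell genes, against 159 to 977 CPM in the other libraries labelled knockout and 103 to 1106 CPM in wildtype libraries. The sum of 3 fat genes was 650 to 671 CPM in knockout replicates 1 and 2 and 663 CPM in wildtype replicate 1, and 186 to 468 CPM in the other 5. Knockout replicate 1 was the highest library for 46 members and the lowest for 45, more than any other library in each case. Lrp2, a marker of the proximal tubule, was at 2403 to 3321 CPM in libraries labelled knockout and at 2499 to 3715 CPM in wildtype libraries.

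Tfap2a, the gene at the centre of the window, was not lower in the libraries labelled knockout. It encodes the transcription factor AP-2 alpha and lies at chromosome 13, 40715302 to 40738376 on GRCm38, on the minus strand. It had 5.65, 3.64, 5.12 and 5.81 CPM in libraries labelled knockout, against 4.08, 4.70, 5.31 and 2.78 CPM in wildtype libraries. The log2 difference was 0.26 with an SE of 0.24 (95% interval -0.26 to 0.78, edgeR adjusted p = 0.957). The counts cover the whole gene, and which exons were floxed is not stated in the labels. Tfap2b on chromosome 1 had 69.2, 103, 58.0 and 89.4 CPM in libraries labelled knockout, against 100.4, 51.8, 74.6 and 86.3 CPM in wildtype libraries. These levels do not bear out the knockout label, and each direction below is given for the libraries labelled knockout. In whole kidney, fewer cells of a type and less RNA per cell cannot be told apart.

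No member passed the test across all genes. With edgeR's quasi-likelihood test and Benjamini-Hochberg adjustment, 0 of 212 members were called, where 0 of 14433 genes tested were called (0%), and the smallest adjusted p was 0.957. At an unadjusted p under 0.05 there were 16 members (7.55%), 9 higher and 7 lower, against 4.00% of all genes tested. The shares of all genes tested were 2.17% for higher and 1.84% for lower. DESeq2 called 0 members and 4 of all genes, with 17 members (8.02%) at an unadjusted p under 0.05, against 715 of the 24562 genes it tested (2.91%), low counts included. With limma-voom 0 members and 0 of all genes were called, with 14 members (6.6%) at an unadjusted p under 0.05, against 586 of all genes tested (4.06%). Counting genes with no overlap between the groups, there were 6 members (2.83%), 4 higher and 2 lower in libraries labelled knockout. Over all genes tested 1.97% had no overlap, 1.03% higher and 0.942% lower. Among the 13870 tested genes that meet the same CPM limit, the shares were 2.02% without overlap and 4.12% at an unadjusted p under 0.05. Cks2 and Hk3, counted under both measures, reached 1 CPM only in the group where they were higher, so the rule admitted them through that group. The same held for Zfp184 and Hist1h2ac, counted at an unadjusted p under 0.05. At a limit of 5 CPM, 2 of 174 members (1.15%) had no overlap and 10 (5.75%) had an unadjusted p under 0.05. Without knockout replicate 3 the count without overlap was 26 (12.3%, against 8.1% of all genes tested), without knockout replicate 4 it was 10 (4.72%, against 4.1%) and without wildtype replicate 1 it was 30 (14.2%, against 8.95%). The count at an unadjusted p under 0.05 was 28 (13.2%, against 8.53%) without knockout replicate 3. It was 6 (2.83%) without knockout replicate 1, against 3.17% of all genes tested, and 6 without knockout replicate 2, against 2.92%, so the members' share was below that of all genes in both.

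By the median size of the difference, members were close to all genes tested. With all 8 libraries their share at an unadjusted p under 0.05 was higher (7.55%, against 4.00%, edgeR). Their median log2 difference was 0.01, against 0.0061 over all genes tested, and their median absolute log2 difference was 0.11, against 0.118. The difference was positive in 113 members and negative in 99, and it exceeded 1 in size in 5. The 95% interval lay within 1 log2 unit of zero for 187 members (88.2%), against 86.5% of all genes tested. On the rest of chromosome 13, 276 genes met the same CPM limit. Of them 5 had no overlap (1.81%), all lower in libraries labelled knockout, and 18 had an unadjusted p under 0.05 (6.52%). Round Tfap2b on chromosome 1, the same rule gave 91 genes, with 2 lacking overlap (2.2%) and 4 at an unadjusted p under 0.05 (4.4%). No test of the difference between these sets was made.

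Distance was read in steps of 5 Mb. Over all genes tested, 1.97% had no overlap and 4.00% had an unadjusted p under 0.05, with a median absolute difference of 0.118. Within 5 Mb of Tfap2a, 0 of 39 members had no overlap and 1 (2.56%) had an unadjusted p under 0.05, with a median absolute difference of 0.103. From 5 to 10 Mb, 4 of 53 members had no overlap (7.55%) and 5 had an unadjusted p under 0.05 (9.43%), with a median of 0.129. From 10 to 15 Mb the counts were 2 of 55 (3.64%) and 3 (5.45%), with a median of 0.0849. The 2 without overlap were Cks2 and Hk3, which were also among the 3. Each averaged 1 CPM or more only in the group where it was higher. From 15 to 20 Mb the counts were 0 of 65 and 7 (10.8%), with a median of 0.169. The 7 included Zfp184 and Hist1h2ac, for which the same held. The nearest and the farthest step both held 0 members without overlap, and the steps were not tested against each other. In the nearest step the log2 difference ran from -0.32 to 0.57, and 37 of 39 intervals lay within 1 unit of zero. The 2 others were F13a1, a subunit of a clotting factor (-0.16 to 1.23), and Mylip (0.01 to 1.13).

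**Figure D1:**
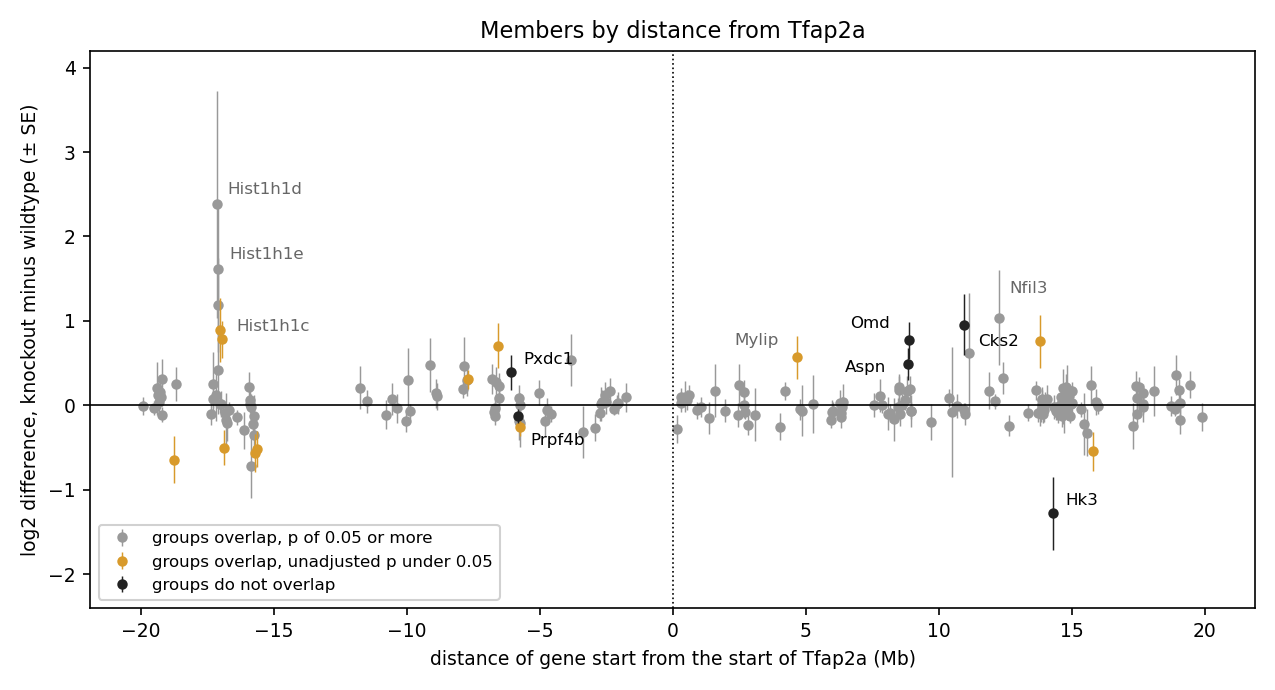
Log2 difference, knockout minus wildtype by label, of the 212 members (y axis, ± SE) against the distance of the gene start from the start of Tfap2a in Mb (x axis). Black points have no overlap between groups, orange points have an unadjusted p under 0.05 with overlapping groups, and grey points are the rest; within 5 Mb no point is black and the values stay between -0.32 and 0.57.

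Each side of Tfap2a was also read alone, beside the same shares of all genes tested (1.97% and 4.00%). Before Tfap2a, from 15 to 20 Mb, 6 of 40 members had an unadjusted p under 0.05 (15%, edgeR), and the median absolute difference was 0.187. Of those 6, Zfp184 and Hist1h2ac averaged 1 CPM or more only in the group where they were higher. After Tfap2a, at the same distance, 1 of 25 had an unadjusted p under 0.05 (4%). From 5 to 10 Mb, 2 of 25 members before and 2 of 28 after Tfap2a had no overlap. From 10 to 15 Mb, 0 of 6 before and 2 of 49 after had none. These 2 were Cks2 and Hk3, admitted through the group where each was higher. The step from 10 to 15 Mb before Tfap2a is too thin to carry a share. The far members before Tfap2a had a lower level, with a median of 14.7 CPM against 25.3 CPM over all members, and 30 of those 40 had an interval within 1 unit of zero. The part of this level in their larger differences was not tested.

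**Figure D2:**
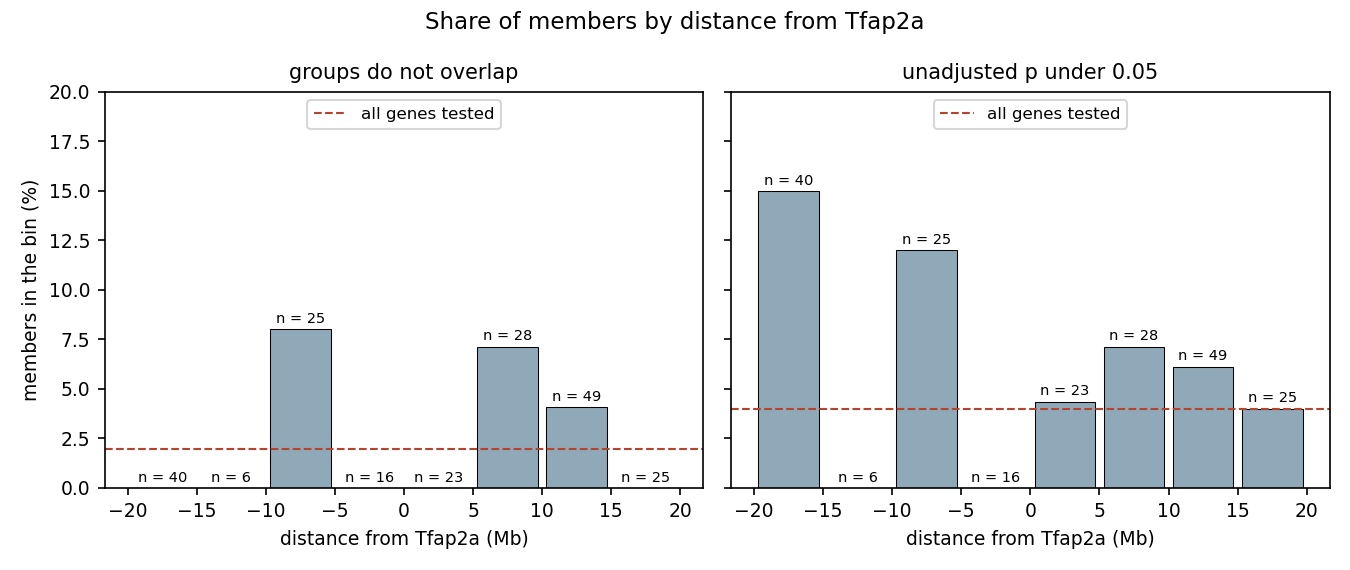
Share of members in each 5 Mb step (y axis, percent) by distance from Tfap2a (x axis, Mb, negative before the gene), left for members without overlap between groups and right for members at an unadjusted p under 0.05. Bars start at 0, n is the number of members in the step, and the dashed lines mark 1.97% and 4.00%, the shares of all genes tested. The highest bar on the right is 15% at 15 to 20 Mb before Tfap2a. It includes Zfp184 and Hist1h2ac, each admitted only through the group where it was higher. The same holds for Cks2 and Hk3, which make up the left bar at 10 to 15 Mb after Tfap2a.

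The 5 members nearest to Tfap2a on each side, 10 in all, had overlapping groups. The nearest before it starts at -1.78 Mb, so members after it from Nedd9 (0.594 Mb) to Edn1 (1.59 Mb) lie closer. After it came Gcnt2, 0.144 Mb away, a transferase that branches sugar chains of the I blood group. It had 56.1, 51.7, 78.7 and 54.9 CPM in libraries labelled knockout, against 63.7, 91.6, 76.0 and 60.8 CPM in wildtype libraries. Knockout replicate 3 was above the other libraries labelled knockout and the groups overlapped, with a log2 difference of -0.28 (SE 0.17, edgeR adjusted p = 0.957). Next were Pak1ip1, a ribosome assembly factor (0.03), Tmem14c, a mitochondrial protein of heme synthesis (0.10), and Elovl2, which elongates polyunsaturated fatty acids (0.10). The last of these 5 was Smim13, a small membrane protein (0.06). Before Tfap2a came Slc35b3, which carries the sulfate donor into the Golgi, at -1.78 Mb (0.10). Eef1e1, a part of the complex of aminoacyl-tRNA synthetases (0.02), and Bloc1s5, a part of a complex for lysosome-related organelles (0.02), followed. Txndc5, a chaperone of the endoplasmic reticulum, was at -0.04. Bmp6, a secreted signal that also controls iron uptake, had 44.7, 49.6, 39.1 and 64.7 CPM in libraries labelled knockout, against 40.7, 46.1, 41.3 and 47.9 CPM in wildtype libraries (0.17). With 1 library left out, Bloc1s5, Eef1e1, Slc35b3, Pak1ip1, Elovl2 and Smim13 each turned in sign in at least 1 case, and Bmp6 turned without the heat-shock libraries. Over these 10 genes the bounds of the 95% intervals ran from -0.64, for Gcnt2, to 0.52, for Elovl2.

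Mylip was the member within 5 Mb that had an unadjusted p under 0.05. It encodes a ubiquitin ligase that sends the receptor of low-density lipoprotein to degradation, and starts 4.67 Mb after Tfap2a. It had 60.8, 66.6, 65.7 and 129 CPM in libraries labelled knockout, against 70.2, 42.4, 54.2 and 50.8 CPM in wildtype libraries. Knockout replicate 4 was far above the rest, and wildtype replicate 1 was above the 3 others labelled knockout. The log2 difference was 0.57 (SE 0.25, unadjusted p = 0.0482, adjusted p = 0.957, edgeR), and it was 0.25 without knockout replicate 4.

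The members without overlap were Pxdc1, Prpf4b, Aspn, Omd, Cks2 and Hk3, and each had an adjusted p of 0.957 in edgeR. Omd and Aspn are neighbours, 8.87 and 8.83 Mb after Tfap2a. Both encode small leucine-rich proteoglycans of the matrix, which bind collagen. Omd, at chromosome 13, 49582462 to 49592822 on the plus strand, had 3.43, 3.89, 4.16 and 3.88 CPM in libraries labelled knockout, against 2.79, 2.63, 1.52 and 2.07 CPM in wildtype libraries. Each library labelled knockout was above each wildtype library, with the closest values at 3.43 and 2.79 CPM. The means were 3.84 ± 0.303 CPM in libraries labelled knockout and 2.25 ± 0.579 CPM in wildtype libraries (SD, n = 4 each), and the log2 difference was 0.77 (SE 0.22, 95% interval 0.27 to 1.26, unadjusted p = 0.00592, edgeR).

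Aspn, at 49544443 to 49567565 on the plus strand, had 7.04, 4.91, 5.79 and 5.28 CPM in libraries labelled knockout, against 4.15, 4.63, 4.42 and 3.16 CPM in wildtype libraries. The closest values of the groups were 4.91 and 4.63 CPM, and the log2 difference was 0.49 (SE 0.19, unadjusted p = 0.0255, edgeR). Ogn and Ecm2, matrix genes beside them, had overlapping groups. Ogn had 22.1, 28.1, 33.2 and 22.5 CPM in libraries labelled knockout, against 18.6, 25.7, 22.4 and 25.9 CPM in wildtype libraries (0.19, SE 0.16), and Ecm2 differed by 0.17 (SE 0.18). The 4 genes belong to a run of 6 members with positive differences, from Bicd2 at 8.63 Mb to Ogn at 8.89 Mb.

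The promoters of the 3 members without overlap that were higher and best covered by counts are shown because a factor of the AP-2 family would act through such DNA. They run from 250 bases before to 50 after the RefSeq transcription start on GRCm38.p6. Capitals mark the AP-2 core motif GCCNNNGGC, which reads the same on both strands. Omd is chr13:49582212-49582511 on the plus strand, Aspn is chr13:49544193-49544492 on the plus strand, and Pxdc1 is chr13:34652632-34652931 on the minus strand.
Omd: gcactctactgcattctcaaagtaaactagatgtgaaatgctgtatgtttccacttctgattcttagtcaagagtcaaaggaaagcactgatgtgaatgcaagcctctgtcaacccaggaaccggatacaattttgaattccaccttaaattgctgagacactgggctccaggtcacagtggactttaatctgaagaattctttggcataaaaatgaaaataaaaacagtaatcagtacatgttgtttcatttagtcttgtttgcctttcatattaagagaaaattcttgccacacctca
Aspn: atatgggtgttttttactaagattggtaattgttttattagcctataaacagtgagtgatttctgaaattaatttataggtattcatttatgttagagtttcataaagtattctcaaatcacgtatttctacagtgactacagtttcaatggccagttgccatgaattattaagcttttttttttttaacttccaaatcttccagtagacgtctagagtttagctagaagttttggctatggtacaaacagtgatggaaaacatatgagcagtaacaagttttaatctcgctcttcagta
Pxdc1: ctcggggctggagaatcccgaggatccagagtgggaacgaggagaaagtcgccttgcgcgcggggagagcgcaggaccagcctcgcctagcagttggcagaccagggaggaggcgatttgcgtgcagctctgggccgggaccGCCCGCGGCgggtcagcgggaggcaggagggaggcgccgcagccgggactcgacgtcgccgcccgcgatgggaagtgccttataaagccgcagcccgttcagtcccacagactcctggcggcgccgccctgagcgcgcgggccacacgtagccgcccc

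The Pxdc1 window held 1 match, at base 143, and the windows of Omd and Aspn held 0. Those of Prpf4b, Cks2 and Hk3 held 0 as well. The motif was present in 16.6% of 32851 RefSeq promoter windows of the same length, and in 69 of 221 windows (31.2%) of the 174 members that had one. The first share covers genes at any level, while members were picked for their level. No share was taken for other genes at 1 CPM or more, so these shares are not like for like. A match is a run of letters only, not a site.

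Pxdc1, a gene for a protein with a phox homology domain, starts at -6.09 Mb. It had 3.36, 4.34, 3.64 and 3.68 CPM in libraries labelled knockout, against 3.33, 2.69, 3.35 and 2.07 CPM in wildtype libraries. The lowest library labelled knockout (3.36 CPM) and the highest wildtype library (3.35 CPM) nearly met (log2 difference 0.39, SE 0.21, 95% interval -0.07 to 0.85). Prpf4b, a kinase of the splicing machinery, starts at -5.84 Mb. It had 70.9, 74.5, 64.8 and 74.5 CPM in libraries labelled knockout, against 77.8, 77.8, 77.7 and 76.4 CPM in wildtype libraries. The wildtype values were nearly alike, and the log2 difference was small, at -0.12 (SE 0.08, 95% interval -0.30 to 0.06).

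Cks2 and Hk3 were separated at low counts. Cks2, a small subunit of cyclin-dependent kinases, starts 10.9 Mb after Tfap2a, and had 1.27, 1.21, 0.742 and 0.802 CPM in libraries labelled knockout, against 0.68, 0.25, 0.569 and 0.581 CPM in wildtype libraries. These were 10 to 20 reads per library labelled knockout and 4 to 10 reads per wildtype library (log2 difference 0.95, SE 0.36, unadjusted p = 0.0242, edgeR). Hk3, a hexokinase known from white blood cells, starts 14.3 Mb after Tfap2a. It had 0.634, 0.51, 0.594 and 0.2 CPM in libraries labelled knockout, against 0.885, 2.07, 0.885 and 0.904 CPM in wildtype libraries. Its log2 difference was -1.28 (SE 0.43, unadjusted p = 0.0138, edgeR), and wildtype replicate 2 was far above the 3 other wildtype libraries.

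Markers of other cells were read beside some of these genes. The sum of 4 immune markers, Ptprc, Cd3e, Ighm and Cd74, was 296, 158, 260 and 188 CPM in libraries labelled knockout, against 116, 444, 321 and 293 CPM in wildtype libraries. Most of it was Cd74. Both this sum and Hk3 were highest in wildtype replicate 2, but wildtype replicate 1 had the lowest sum of the 8 libraries and more Hk3 (0.885 CPM) than any library labelled knockout. None of the 4 was at 0 in any library. The sum of 3 endothelial markers, Plvap, Flt1 and Tie1, was 219 to 226 CPM in libraries labelled knockout, against 170 to 190 CPM in wildtype libraries, with no overlap. The part of either in the results for Hk3, Omd, Aspn and Pxdc1 was not tested.

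**Figure D3:**
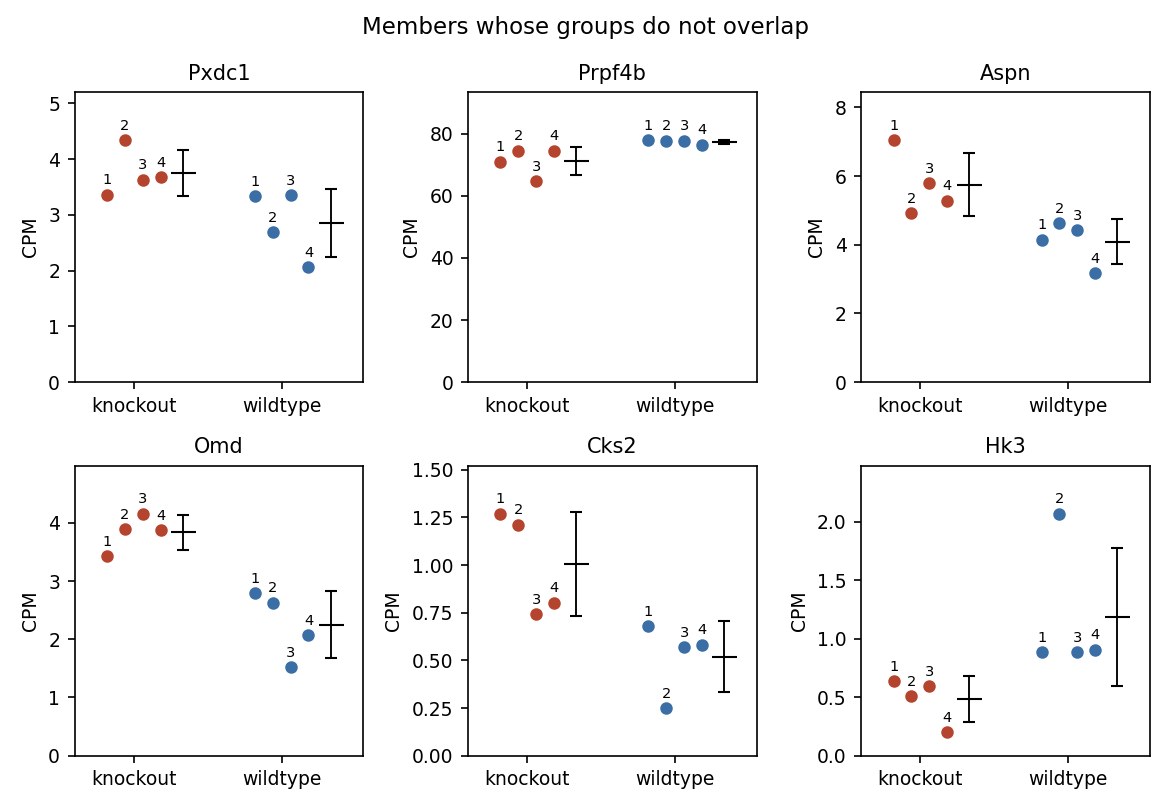
CPM (y axis, from 0) of the 6 members without overlap between groups, in the 4 libraries labelled knockout (red) and the 4 wildtype libraries (blue), numbered by replicate, with the mean ± SD. Omd lies at 3.43 to 4.16 CPM in libraries labelled knockout and at 1.52 to 2.79 CPM in wildtype libraries, while Pxdc1 and Prpf4b are separated by narrow gaps.

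The core and linker histone genes, which package DNA, lie mostly near -17.0 Mb and include the 2 members with the largest positive differences, Hist1h1d and Hist1h1e. Of 10 such members, 8 had a positive and 2 a negative difference. Of them 0 were called and 2 (20%, against 4.00% of all genes tested) had an unadjusted p under 0.05. Those without overlap numbered 0, against 1.97% of all genes tested. Their median difference was 0.34, against 0.0061 over all genes tested. Of the 8 positive members, Hist1h1d, Hist1h1e, Hist1h2be and Hist1h2ac averaged 1 CPM or more only in libraries labelled knockout. The rule admitted them through that group. Hist1h2ac was 1 of the 2 counted at an unadjusted p under 0.05 in edgeR. Hist1h1c, a linker histone, had 198, 126, 92.8 and 189 CPM in libraries labelled knockout, against 99.6, 74.9, 85.6 and 92.4 CPM in wildtype libraries. Knockout replicate 3 lay inside the wildtype range and the 3 others above it (log2 difference 0.78, SE 0.22, unadjusted p = 0.00512, edgeR). Hist1h1d, another linker histone, had 1.52, 2.11, 0.0742 and 13.6 CPM in libraries labelled knockout, against 0.408, 0.125, 0.126 and 2.65 CPM in wildtype libraries. Replicate 4 was highest in both groups, and the difference of 2.38 had an SE of 1.34. Hist1h1e had 0.825, 1.72, 0.445 and 6.08 CPM in libraries labelled knockout, against 0.476, 1.31, 0.379 and 0.775 CPM in wildtype libraries (1.61, SE 0.77). Replicative histone messages are known to lack a poly(A) tail, and histone genes share sequence with near copies, so their counts are uncertain.

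Knockout replicate 4 was the highest library for 6 of the 9 members whose libraries spanned more than 5-fold. Nfil3, a repressor that follows the daily rhythm, had 8.69, 13.6, 7.20 and 39.2 CPM in libraries labelled knockout, against 8.64, 4.82, 6.64 and 13.4 CPM in wildtype libraries. Gadd45g, a stress-response gene, had 66.9, 36.4, 37.7 and 171 CPM in libraries labelled knockout, against 88.7, 70.9, 18.3 and 25.1 CPM in wildtype libraries. Gm11398, whose exon bases all lie inside Hist1h2be, had 26.8 CPM in knockout replicate 4, against 4.36 to 5.57 CPM in wildtype libraries. That library also had the highest sum of heat-shock genes. With both heat-shock libraries left out, the difference of Hist1h1d was -0.0081 and that of Hist1h1e was -0.20, each turned in sign.

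Hist1h2al, chosen after its values were seen, is annotated as a processed pseudogene of a histone, 10.5 Mb after Tfap2a. Knockout replicate 3 had 2 reads of it, while the other libraries labelled knockout had 190, 236 and 191 reads and the wildtype libraries had 214, 138, 174 and 131 reads. The counts of the 7 other libraries overlapped between groups, and the log2 difference was -0.08.

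**Figure D4:**
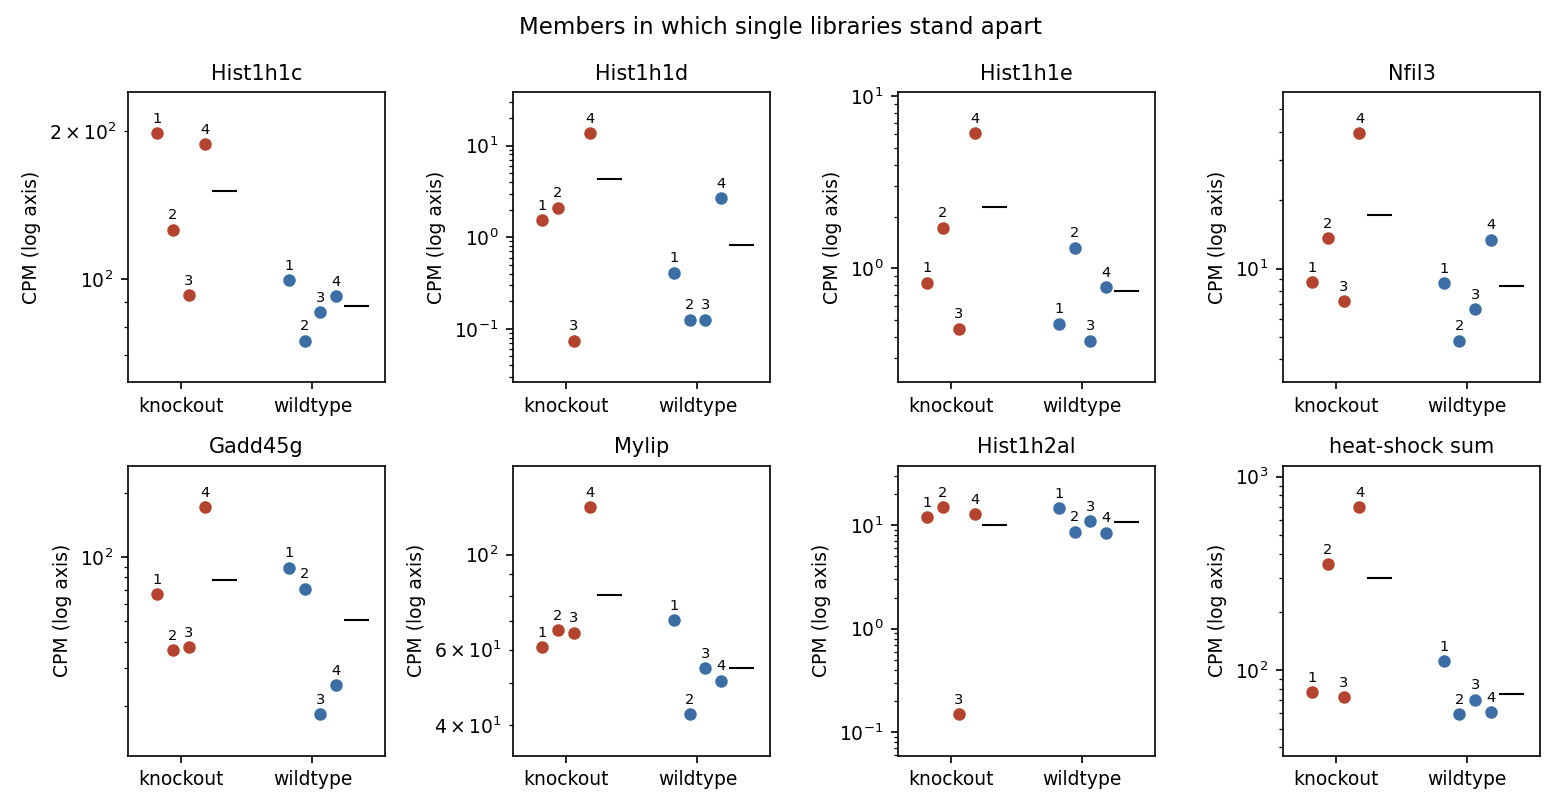
CPM on a log axis (y) of 7 members in which single libraries stood apart, and the sum of 3 heat-shock genes, in libraries labelled knockout (red) and wildtype libraries (blue), numbered by replicate, with a bar at the mean. Knockout replicate 4 is highest for Hist1h1d, Hist1h1e, Nfil3, Gadd45g and Mylip and for the heat-shock sum, and knockout replicate 3 alone is low for Hist1h2al.

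Transport genes had mostly negative differences. Of 10 members that move ions or solutes or control that, 3 were positive and 7 negative, with a median difference of -0.13. Of them 0 were called and 2 (20%, against 4.00% of all genes tested) had an unadjusted p under 0.05, both lower in libraries labelled knockout. Slc17a3, an organic anion transporter of the proximal tubule, had 579, 675, 1127 and 633 CPM in libraries labelled knockout, against 882, 1230, 1096 and 1058 CPM in wildtype libraries. Knockout replicate 3 lay within the wildtype range and the 3 others below it (log2 difference -0.50, SE 0.21, unadjusted p = 0.0339, edgeR). Mrs2, a magnesium channel of mitochondria, had 18.3, 26.0, 32.4 and 33.1 CPM in libraries labelled knockout, against 26.4, 49.1, 40.8 and 46.6 CPM in wildtype libraries (-0.57, SE 0.22, unadjusted p = 0.0292, edgeR). Mrs2 shares 2466 exon bases with Gpld1 on the opposite strand, and the counting did not use strand. Slc34a1, the phosphate transporter of the proximal tubule and the most abundant member, had 3258, 3539, 5521 and 4439 CPM in libraries labelled knockout, against 3313, 4222, 4946 and 4704 CPM in wildtype libraries (-0.04, 95% interval -0.45 to 0.37, turned in sign without some single libraries). Slc17a1, a related phosphate and anion transporter, had 891, 649, 929 and 710 CPM in libraries labelled knockout, against 795, 922, 851 and 817 CPM in wildtype libraries (-0.09). The sum of 5 proximal tubule markers, most of it Kap, was 31582 to 57218 CPM in libraries labelled knockout, against 43482 to 56004 CPM in wildtype libraries. Another marker among the 5, Slc22a6, had 837, 1103, 1516 and 1050 CPM in libraries labelled knockout, against 1007, 1669, 1345 and 1526 CPM in wildtype libraries. In it, as in Slc17a3, knockout replicate 3 was the highest library labelled knockout and wildtype replicate 1 the lowest wildtype library. The rest of the 5 did not share both traits. Slc5a2, Lrp2 and Cubn were also lowest among wildtype libraries in replicate 1. Their highest library labelled knockout was replicate 4, at 379, 3321 and 749 CPM. Kap was highest among wildtype libraries in replicate 1, at 51832 CPM. The part of these markers in the transport values was not tested.

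**Figure D5:**
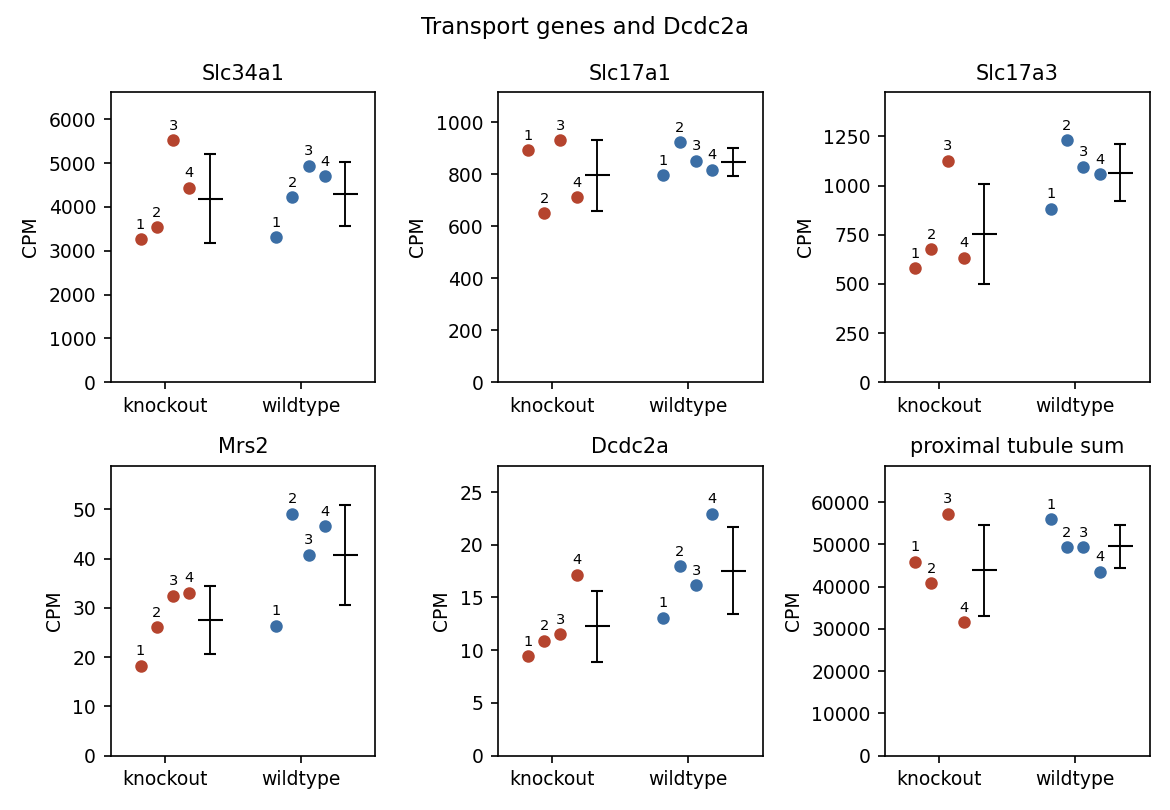
CPM (y axis, from 0) of 4 transport genes, Dcdc2a and the sum of 5 proximal tubule markers, in libraries labelled knockout (red) and wildtype libraries (blue), numbered by replicate, with mean ± SD. Slc17a3 is at 579 to 675 CPM in 3 libraries labelled knockout and at 1127 CPM in the other one, against 882 to 1230 CPM in wildtype libraries.

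Beside Mrs2 lies Dcdc2a, a gene of cilia and microtubules, at -15.7 Mb. It had 9.45, 10.9, 11.5 and 17.2 CPM in libraries labelled knockout, against 13.1, 18, 16.2 and 22.9 CPM in wildtype libraries (-0.52, SE 0.22, unadjusted p = 0.0362, edgeR). It closes a run of 7 members with negative differences that starts at Tdp2, at -15.9 Mb. Another 7 in a row, from Slc17a3 to Ripor2, were negative, and 11 in a row, from Abt1 to Hist1h1c, were positive. These runs were read from the order of the genes and were not tested. Over all members, 78 have exon bases that also lie in another gene.

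The remaining 4 members at an unadjusted p under 0.05 had overlapping groups, and none was called. Hist1h2ac, a core histone, differed by 0.89 (SE 0.38), and Gm2830 by 0.76. Fbxl21, an F-box protein of the daily clock, differed by -0.54 and Zfp184, a zinc finger protein, by -0.64 (SE 0.28).

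Other members picked by level or by the size of their difference had overlapping groups. D130043K22Rik, in the run that Dcdc2a closes, had 1.65, 2.62, 3.71 and 1.80 CPM in libraries labelled knockout, against 1.84, 6.01, 3.10 and 5.04 CPM in wildtype libraries (-0.72, SE 0.38). Ror2, a receptor for Wnt ligands, had 3.24, 4.98, 3.78 and 4.41 CPM in libraries labelled knockout, against 3.61, 3.07, 3.48 and 2.97 CPM in wildtype libraries (0.32, SE 0.19). The abundant members differed little: 4833439L19Rik by -0.10, Nsd1, a histone methyltransferase, by -0.09, Bphl, a hydrolase, by -0.13, and Lman2, a cargo receptor of the secretory path, by -0.13. Adtrp and Ninj1 were at -0.02 each, and both turned in sign when scaled by library size only.

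The other groups of genes held no call either. The 4 serpins of clade B, which inhibit proteases, all had positive differences with a median of 0.31. Serpinb9, which inhibits granzyme B, had 50.9, 46.4, 38.7 and 43.9 CPM in libraries labelled knockout, against 41.4, 35.2, 36.2 and 32.4 CPM in wildtype libraries (0.31, SE 0.11, unadjusted p = 0.0212, edgeR). Of 11 secreted and matrix genes, 9 were positive and 2 negative, with a median of 0.17. Of 24 genes listed under metabolism and mitochondria, 8 were positive and 16 negative, with a median of -0.09. At an unadjusted p under 0.05 in edgeR there were 3, all lower. They include Dcdc2a, which is a gene of cilia and microtubules, so this list is loose. They also include Hk3, which averaged 1 CPM or more only in wildtype libraries and was admitted through that group. The other was Eci3, an isomerase of fatty acid oxidation. It had 276, 303, 337 and 267 CPM in libraries labelled knockout, against 329, 339, 360 and 382 CPM in wildtype libraries (-0.25, SE 0.11). Of 10 genes listed under junctions and cytoskeleton, 9 were positive and 1 negative. The list is loose, since the 9 include Cks2, a subunit of cyclin-dependent kinases, and Nhlrc1 and Rnf144b (0.03 and 0.04). Cks2 averaged 1 CPM or more only in libraries labelled knockout. Tubb2b, a beta-tubulin, had 7.80, 7.97, 3.71 and 8.15 CPM in libraries labelled knockout, against 5.10, 4.19, 3.03 and 4.65 CPM in wildtype libraries (0.71, SE 0.27). Of 21 genes of transcription and chromatin, 9 were positive and 12 negative, with a median of -0.02, and of 20 receptors and signalling genes, 9 were positive and 11 negative. Of 27 genes of vesicles, nucleus and protein processing, 12 were positive and 15 negative. The prolactin family, which also lies in this window, had 0 members above the CPM limit.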

How the data were processed

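Reads of 8 whole-kidney RNA libraries were counted per gene. The authors deposited raw counts, whole numbers with no normalization, judging by the values. Per the submitters' processing notes, STAR, HTSeq and edgeR were used with the build mm9; neither versions nor the annotation were stated. Counting did not use strand, per the deposited file names, so overlapping genes on either strand were not separated. Lines that name no gene were left out: reads outside genes were 11.6% to 16.2%, ambiguous ones 2.05% to 2.31% and those aligned to several places 15.8% to 20.9% of each library.

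The files hold no coordinates. Of 37583 identifiers, 32860 matched GENCODE M21 on GRCm38, whose positions are used, and no coordinate was converted. The test was edgeR 4.0.16 (R 4.3.3), quasi-likelihood, two-sided, robust, with TMM, genotype as the only term and filterByExpr (minimum count 10, minimum total 15). It was fitted on 14433 genes, with Benjamini-Hochberg adjustment over all of them at 0.05, and all 212 members were tested. CPM values use TMM-scaled library sizes.

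The members and the gene lists were chosen with earlier results of these data known. Named genes were the targeted genes, members without overlap, the 10 lowest p, the 3 largest differences in each direction, the 5 nearest on each side, the 4 most abundant, the lowest p and most abundant of each list, and members at 0 in a library while another reached 1 CPM. One gene of the window is not reported here. Ogn, Ecm2, Nfil3, Gadd45g, F13a1, Eci3, Hist1h2ac, Gm2830, Fbxl21 and Hist1h2al lie outside the rule and were chosen after their values were seen. Alternatives were DESeq2 1.42.0, limma-voom (limma 3.58.1), other scaling, filters and windows, a replicate block and libraries left out. Figures used matplotlib 3.10.9.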

Additional observations from a re-analysis of the deposited data

Results flagged for a closer look

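Among 78 groups of 4 libraries examined, 10 had a library farther from its group than Dixon's 95% limit for the gap over the range, and chance flags about 1 in 20. Knockout replicate 4 was high for Hist1h1d (13.6 CPM), Gm11398 (26.8 CPM) and Mylip (129 CPM). Wildtype replicate 4 was also high for Hist1h1d, at 2.65 CPM. Knockout replicate 3 was low for Tubb2b, at 3.71 CPM, and high for Gcnt2 (78.7 CPM) and Lman2 (274 CPM). Knockout replicate 1 was high for Eef1e1, at 22.6 CPM. Wildtype replicate 2 was high for Hk3, at 2.07 CPM, and wildtype replicate 4 was low for Prpf4b, at 76.4 CPM.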

How the results depend on the processing

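The count of members called was 0 under each alternative run. The 6 members without overlap became 2 of 174 (1.15%) with a limit of 5 CPM, 4 of 92 (4.35%) within 10 Mb and 0 of 39 within 5 Mb, against 1.97% of all genes tested. The count was 32 (15.1%, against 11.2% of all genes tested) without the adrenal libraries and 38 (17.9%, against 14.9%) without the heat-shock libraries. Leaving out 1 library gave 7 to 30 members without overlap: 26 (12.3%, against 8.1%) without knockout replicate 3, 10 (4.72%, against 4.1%) without knockout replicate 4 and 30 (14.2%, against 8.95%) without wildtype replicate 1. Fewer libraries make overlap less likely by construction.

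The 16 members at an unadjusted p under 0.05 (7.55%) became 10 (5.75%) with a limit of 5 CPM, 6 (6.52%) within 10 Mb and 1 (2.56%) within 5 Mb, against 4.00% of all genes tested. Leaving out 1 library gave 6 to 28: 6 without knockout replicate 1 and 6 without 2, 28 without 3 and 10 without 4, and 25, 7, 8 and 7 without wildtype replicates 1, 2, 3 and 4. The matching shares of all genes tested were 3.17%, 2.92%, 8.53% and 3.66% for the libraries labelled knockout, and 8.53%, 2.35%, 2.83% and 2.76% for the wildtype libraries. With the replicate number as a block there were 30 (14.2%, against 7.45% of all genes tested) and 0 called. Same-numbered libraries correlated at 0.226, -0.23, 0.282 and 0.293. Knockout replicates 1 and 4 correlated best with the wildtype library of their own number, and replicates 2 and 3 with another. These values do not settle whether the numbers pair the libraries.

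The median difference of members was 0.0417 by library size only and 0.0334 without the adrenal libraries, and -0.0016 to 0.0288 with 1 library left out. The median absolute difference was 0.138 without the adrenal libraries, 0.149 without the heat-shock libraries and 0.0968 to 0.148 with 1 library left out. Of 699 values of 39 named genes, 38 turned in sign, over 14 genes, and the cause was not tested. By library size only, Adtrp was at 0.0095 and Ninj1 at 0.011. Without the adrenal libraries, they were at 0.025 and 0.011. Without the heat-shock libraries, Tfap2b was at -0.30, Hist1h1d at -0.0081, Hist1h1e at -0.20, Bmp6 at -0.0721, Elovl2 at -0.0715, Slc34a1 at 0.0307, Slc17a1 at 0.10, Adtrp at 0.0281 and Ninj1 at 0.0803. With 1 library left out, Tfap2b ran from -0.12 to 0.18, Bloc1s5 from -0.0274 to 0.0682, Eef1e1 from -0.0840 to 0.0824, Slc35b3 from -0.0038 to 0.21, Pak1ip1 from -0.0148 to 0.0962, Elovl2 from -0.0182 to 0.29, Smim13 from -0.00012 to 0.11, Slc34a1 from -0.20 to 0.0669, Adtrp from -0.11 to 0.0414 and Ninj1 from -0.0726 to 0.0426. Depth limits the genes near 1 CPM, such as Cks2 and Hk3, most.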
